A study of Arabidopsis thaliana with 3 samples.

Results

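Aux/IAA and SAUR genes are the classical early auxin response families of plants, and their transcript ratios are described here in rosettes of Arabidopsis thaliana. The members were the genes whose symbol, in the probe annotation or in RefSeq's table of TAIR10.1 genes, is IAA or SAUR followed by digits, with a leading AT removed and case ignored. By this rule 40 genes belong to the families, 16 SAUR and 24 Aux/IAA genes, and 26 of the 24650 genes with named probes were measured members, 2 SAUR genes (SAUR15 and SAUR68) and all 24 Aux/IAA genes. The other 14 SAUR genes of the rule, among them SAUR19, SAUR20 and SAUR63, are not analysed here. The gene table gives most SAUR numbers only as synonyms of a locus code, so the 63 SAUR and 5 Aux/IAA genes named in that way are described beside the members, which brings the families to 65 SAUR and 29 Aux/IAA genes. Old IAA numbers that the table lists as synonyms of auxin response factor genes were not used.

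The double mutant lsm1a lsm1b and Col-0, the wild type and labelled control, were each sampled as rosettes, and RNA of both was hybridised together on each of 3 two-colour oligonucleotide arrays, which the labels call biological replicates. The mutant RNA carried Cy3 on arrays 1 and 3 and Cy5 on array 2, the dye swap. Both genotypes share their growth labels, and these disagree. The sample characteristics and growth protocol give plants of 2 weeks in 16 h light and 8 h dark at 22 °C, and the sample descriptions give plants of 3 weeks held for 1 day at 4 °C. Neither the alleles nor the number of plants per array is stated.

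Every value is a log2 ratio within an array, read as lsm1a lsm1b over Col-0. The dye-swapped array correlated with arrays 1 and 3 at r = 0.416 and 0.411 over probes, so the deposited ratios had already been turned one way. The direction is likely rather than certain, because it rests on the mutant being named as the first channel of every sample and Col-0 as the control. Were the deposited sign opposite, each higher and lower below would change places. LSM1A and LSM1B themselves are not analysed here. Ratios hold no transcript levels, so neither the tissue label nor the brightness of a probe could be checked.

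In the auxin pathway, Aux/IAA proteins are short-lived repressors that bind auxin response factors and recruit co-repressors to their target genes. Auxin joins them to the receptor TIR1 or an AFB relative, which leads to their destruction and frees the targets, among them many Aux/IAA and SAUR genes themselves. SAUR genes encode small proteins, several of which inhibit PP2C.D phosphatases and so keep the proton pumps of the plasma membrane active, a step in cell expansion. SAUR transcripts are known for rapid decay, and that of SAUR15, also called SAUR-AC1, carries a downstream instability element. LSM1 distinguishes the cytoplasmic ring of LSM proteins, which binds messenger RNA and promotes its decapping and decay, from the nuclear ring. Comparing lsm1a lsm1b with Col-0 addresses how transcript levels of the families differ without it.

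Both families were centred close to 0 in lsm1a lsm1b, and few of their genes passed the test. None of the 26 members passed the threshold, an adjusted p under 0.05 in limma's moderated test against 0 with Benjamini-Hochberg adjustment over all 24650 genes, which 1.21% of all genes passed. At an unadjusted p under 0.05, which 20.1% of all genes reached, there were 3 members, 2 higher and 1 lower, all Aux/IAA genes. With the genes named by a synonym, 2 of 65 SAUR genes and 0 of 29 Aux/IAA genes passed. SAUR33 was 2.44-fold higher in the mutant, and AT5G18030, a gene of the SAUR19 to SAUR24 group, was 2.64-fold lower. At that unadjusted p there were 20 SAUR genes (30.8%, 8 higher and 12 lower) and 4 Aux/IAA genes (13.8%, 3 higher and 1 lower). These shares depended on single arrays. Without array 1 they were 27.7% of SAUR genes, 6.9% of Aux/IAA genes and 11.4% of all genes, and without array 3 they were 20%, 10.3% and 10.3%. Without array 2, the dye swap, they lay close together at 30.8%, 27.6% and 29.7%. In bulk tissue, fewer cells of a type and less RNA per cell cannot be told apart.

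In their means over the 3 arrays, the SAUR genes were spread more widely than the Aux/IAA genes, with a similar centre. The 65 SAUR genes had a median mean ratio of -0.01 and an interquartile range of 0.40, the 29 Aux/IAA genes a median of 0.02 and a range of 0.31, and all genes a median of 0.01 and a range of 0.25. A mean ratio of 0.5 or more in size, a change of at least 1.41-fold, was seen for 15 SAUR genes (23.1%, 6 higher and 9 lower) and 3 Aux/IAA genes (10.3%, 2 higher and 1 lower), beside 11.6% of all genes. Mean ratios reached from -1.60 to 1.29 among SAUR genes and from -0.58 to 0.80 among Aux/IAA genes. On array 1 alone the values reached from -1.10 (AT5G18030) to 1.20 (SAUR33) and from -0.83 (IAA6) to 1.32 (IAA28). Interquartile ranges were taken of the means only, so the wider spread of SAUR genes is not shown for each array. The median SD between arrays was 0.27 for SAUR genes, 0.22 for Aux/IAA genes and 0.19 for all genes. Members of a family are not replicates, and no p is given for the difference between the families.

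By array, the family medians were -0.04, -0.03 and -0.04 for SAUR genes on arrays 1, 2 and 3, and 0.27, -0.04 and 0.02 for Aux/IAA genes. The medians of all genes were 0.01, 0.01 and 0.00. The Aux/IAA median was more than 0.1 from that of all genes on array 1 alone, where 20 of 29 lay above 0, against 13 on array 2 and 15 on array 3. SAUR minus Aux/IAA was -0.31 on array 1, 0.02 on array 2 and -0.06 on array 3, and -0.04 for the medians of the means. That last difference was 0.01 without array 1, -0.12 without array 2 and -0.17 without array 3, so even its sign depended on array 1. Over the members by symbol alone the medians were -0.25 for the 2 SAUR genes and -0.01 for the 24 Aux/IAA genes.

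**Figure D1:**
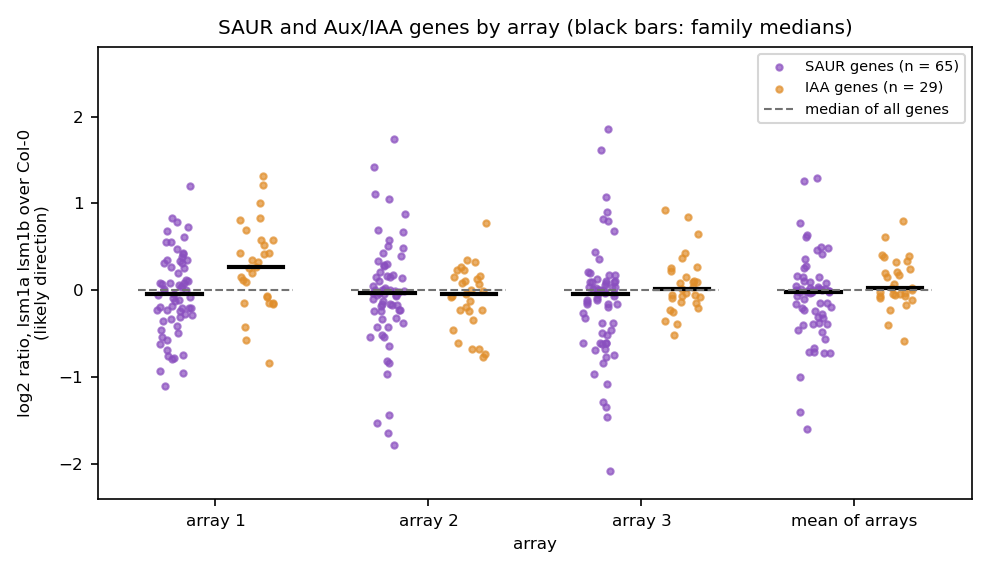
Log2 ratios (vertical axis, lsm1a lsm1b over Col-0, likely direction) of 65 SAUR and 29 Aux/IAA genes, synonyms included, on each array and as means; each point is a gene, black bars are family medians and dashed lines the median of all genes. In the means SAUR genes reach further from 0 than Aux/IAA genes in both directions, and the Aux/IAA median leaves the dashed line on array 1 alone, at 0.27.

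AT5G18030 gave the lowest p of both families. The gene table lists it as SAUR21, a number that it also gives to another locus, so the locus code is used. It stood at -1.10, -1.64 and -1.46 on arrays 1, 2 and 3, below 0 on every array. Its mean was -1.40 ± 0.28 (SD, n = 3 arrays; limma adjusted p = 0.0412), measured by 1 probe. The SAUR19 to SAUR24 proteins are known to promote cell expansion. The other 5 genes of the group are not analysed here, and these neighbours are close copies, so the probe may also read their transcripts. SAUR33 was the highest of the SAUR genes, with 1.20, 1.05 and 1.62 on arrays 1, 2 and 3. Its mean was 1.29 ± 0.29 (SD, n = 3 arrays; limma adjusted p = 0.0468), and its 2 probes averaged 1.18 and 1.40. Without array 1, 2 or 3 the mean was -1.55, -1.28 and -1.37 for AT5G18030 and 1.33, 1.41 and 1.13 for SAUR33. No gene of the whole table passed the threshold in limma with 2 arrays, so the loss of both calls there (adjusted p from 0.0735 to 0.295) is not particular to them. With a term for the dye the adjusted p was 0.0703 for AT5G18030 and 0.0709 for SAUR33, again with no gene past the threshold.

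Other SAUR genes on the low side were below 0 on all 3 arrays without passing the threshold. SAUR64, of the SAUR61 to SAUR68 group known for elongation of hypocotyls and stamen filaments, had the lowest mean of all, -1.60 ± 0.60, with -0.93, -1.78 and -2.08 on arrays 1, 2 and 3 (limma adjusted p = 0.069). SAUR65 of the same group stood at -0.27, -1.43 and -1.28, weak on array 1 and strong on the other two. SAUR76, of a subfamily linked to ethylene signalling, varied least of the low genes named here, at -0.62, -0.81 and -0.74 (mean -0.72 ± 0.10; limma adjusted p = 0.0517). SAUR16, one of the SAUR genes that light induces in opening cotyledons, had -0.41, -0.42 and -1.34, a low value carried mostly by array 3. SAUR1 stood at -0.79, -0.24 and -1.08.

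On the high side, SAUR32, a member associated with apical hook development, stood at 0.79, 1.11 and 1.86 on arrays 1, 2 and 3, a mean of 1.25 ± 0.55 (limma adjusted p = 0.083). SAUR51 had 0.62, 0.88 and 0.82 (mean 0.77 ± 0.14; limma adjusted p = 0.0532). These genes were above 0 on every array, and SAUR51 varied least. SAUR48 stood at 0.42, 0.40 and 1.08, and SAUR35 at 0.32, 0.29 and 0.90, both with their highest value on array 3. SAUR72 differed from these, with -0.35, 1.74 and 0.44, so its mean of 0.61 ± 1.06 rests on array 2. SAUR71, a close relative named here because its values showed the same pattern, stood at 0.07, 1.43 and -0.03. Taking all 65 SAUR genes, 11 lay above 0 and 18 below 0 on all 3 arrays (44.6% with 1 sign), beside 19.7% and 18.0% of all genes (37.6% with 1 sign).

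SAUR15 and SAUR68, the SAUR genes measured under their own symbol, had nearly the same values. SAUR15 stood at 0.39, -0.51 and -0.60 on arrays 1, 2 and 3, a mean of -0.24 ± 0.55 (limma adjusted p = 0.687; 95% interval -0.84 to 0.36). SAUR68 stood at 0.34, -0.53 and -0.61, a mean of -0.27 ± 0.53 (limma adjusted p = 0.622; 95% interval -0.85 to 0.31). Both lay above 0 on array 1 and below 0 on arrays 2 and 3. Arrays 1 and 3 share their dye orientation, and what set array 1 apart was not tested. The intervals span changes in either direction, so no change was detected for either gene. With array weights, a fit that leans on array 3, the means were -0.50 for SAUR15 and -0.51 for SAUR68 (limma adjusted p = 0.0492 and 0.0411), where 36.8% of all genes passed.

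**Figure D2:**
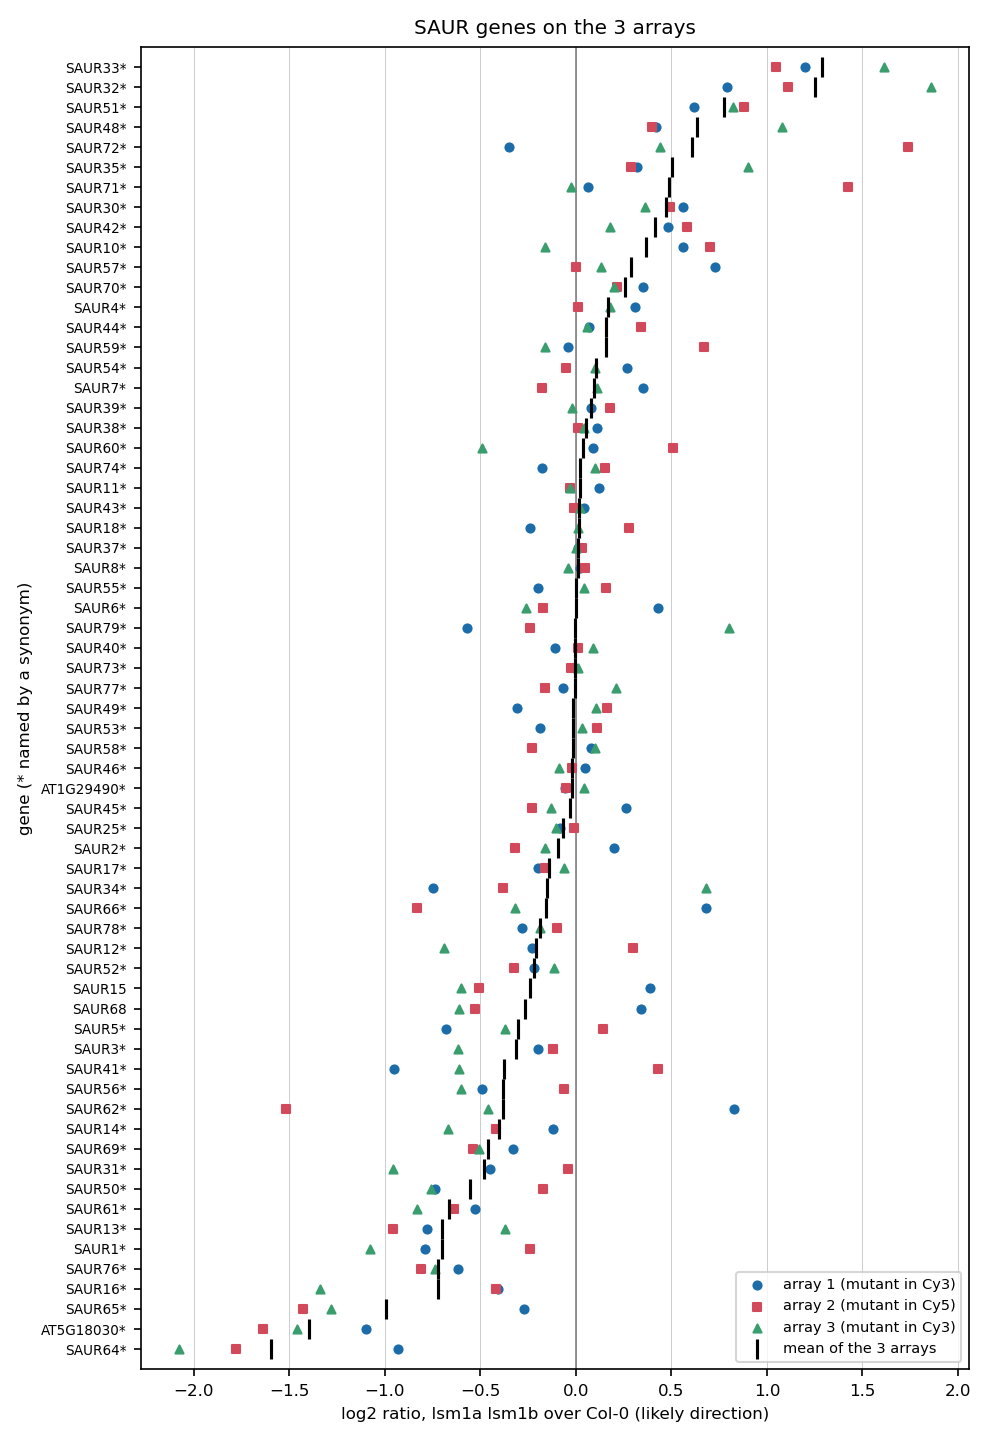
Log2 ratios (horizontal axis, lsm1a lsm1b over Col-0, likely direction) of the 65 SAUR genes on the 3 arrays, ordered by mean; symbols mark the arrays, vertical ticks the means, and an asterisk a gene named by a synonym. SAUR33 at the top and AT5G18030 near the bottom have all 3 values on one side of 0, while SAUR71 has 1 array far from the others and SAUR72 and SAUR62 are spread over all 3.

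Many SAUR genes sit beside each other on the chromosomes, and the low values lay mostly among these. Counting SAUR genes of the gene table within 10 protein-coding genes of each other as neighbours, 29 measured SAUR genes had a SAUR neighbour and 36 had none. The 29 with a neighbour had a median of -0.24, with -0.19, -0.24 and -0.37 on arrays 1, 2 and 3, and the 36 without had 0.02, with 0.03, 0.04 and 0.02. At an unadjusted p under 0.05 the genes with a neighbour counted 2 higher and 10 lower, and those without 6 higher and 2 lower, beside 10.6% of all genes higher and 9.48% lower. This split was made with the ratios known and was not tested, and genes of a group can share probe signal, so they do not count as separate observations.

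On chromosome 1, the 7 measured genes from SAUR61 to SAUR68 had means from -1.60 to -0.02, with a median of -0.38. Their medians were -0.06, -0.83 and -0.61 on arrays 1, 2 and 3, so the group was low on arrays 2 and 3 and near 0 on array 1. SAUR62 shows the split most clearly, with 0.83, -1.52 and -0.46, while SAUR61 had -0.53, -0.64 and -0.83, similar on every array. AT1G29490, in the middle of the group, stayed near 0 with -0.06, -0.05 and 0.04, the average of 2 probes of opposite sign on arrays 1 and 3. On chromosome 4, the group of SAUR13, SAUR14, SAUR15 and SAUR16 had a median of -0.55, and its 3 genes other than SAUR15 were below 0 on all arrays. SAUR13 stood at -0.78, -0.96 and -0.37.

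The larger group on chromosome 4, with SAUR49, SAUR50 and SAUR1 to SAUR5, had a median of -0.30 and means from -0.70 to 0.17. SAUR50, another gene known from light-driven cotyledon opening, stood at -0.74, -0.17 and -0.76, less low on the dye-swapped array. SAUR4 of this group was above 0 on all arrays with 0.31, 0.01 and 0.18. On chromosome 2, SAUR7, SAUR6 and SAUR12 had means of 0.09, 0.00 and -0.21, each with mixed signs. Neighbours did not always go together: SAUR70 had a mean of 0.26 ± 0.08 and the adjoining SAUR76 one of -0.72 ± 0.10, with 1 sign each on all 3 arrays.

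**Figure D3:**
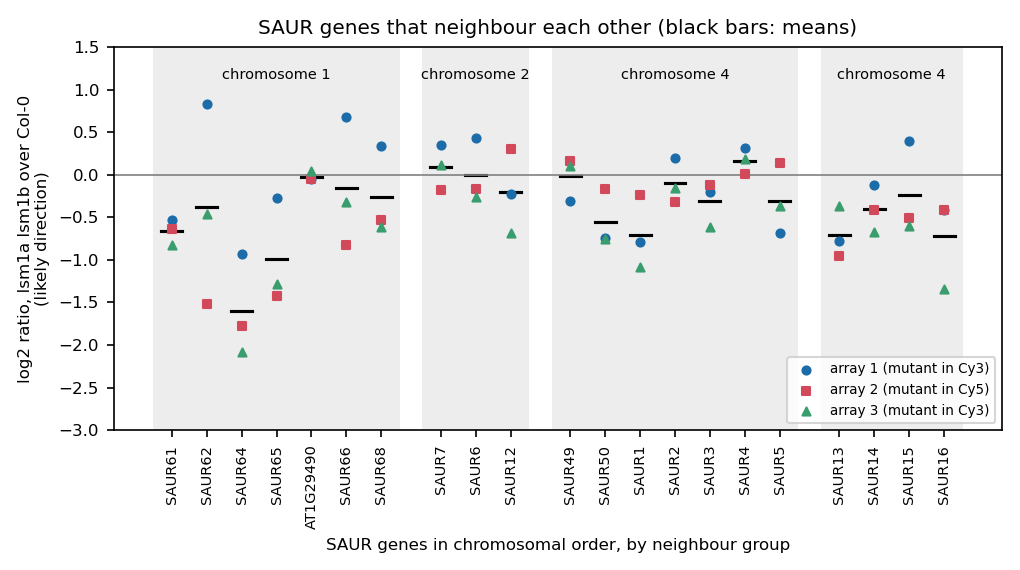
Log2 ratios (vertical axis, lsm1a lsm1b over Col-0, likely direction) of SAUR genes in the 4 neighbour groups with at least 3 measured genes, in chromosomal order; symbols mark the arrays and black bars the means. In the chromosome 1 group array 1 lies above arrays 2 and 3 for every gene but AT1G29490, and in the group of SAUR13 to SAUR16 only SAUR15 has a value above 0.

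Among the Aux/IAA repressor genes, IAA29 was the lowest and IAA28 the highest, and neither passed. IAA29, which phytochrome-interacting factors induce in shade and warmth, stood at -0.57, -0.77 and -0.39 on arrays 1, 2 and 3, below 0 on each (mean -0.58 ± 0.19; limma adjusted p = 0.0872). IAA8 stood closer to 0, with -0.14, -0.34 and -0.21 (mean -0.23 ± 0.10; limma adjusted p = 0.26). Its 3 probes lay up to 0.80 apart on an array and differed in sign on arrays 1 and 3. The small SD of IAA8 is thus that of the average. IAA6 had -0.83, -0.45 and 0.08, and IAA19, a regulator of hypocotyl bending, -0.14, -0.60 and 0.22. Both changed side on array 3.

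IAA28, a repressor of lateral root formation, stood at 1.32, 0.24 and 0.84, above 0 on all arrays and weakest on the dye-swapped one (mean 0.80 ± 0.54; limma adjusted p = 0.158). IAA9 had 1.01, -0.08 and 0.92, near 0 on array 2. IAA12, the BODENLOS repressor of embryonic patterning, stood at 0.35, 0.77 and 0.10, a mean of 0.41 ± 0.34. IAA2, an early auxin-induced gene widely used as a reporter, averaged 0.42, 0.35 and 0.26 (mean 0.34 ± 0.08; limma adjusted p = 0.132). Its 2 probes did not share this pattern, with 0.87, -0.03 and 0.61 for one and -0.04, 0.73 and -0.09 for the other, of opposite sign on every array. The small SD of IAA2 therefore exists in the average alone. IAA26, named by a synonym, averaged 0.33, 0.24 and 0.43 (mean 0.33 ± 0.10; limma adjusted p = 0.147). Its probes had 0.15, 0.38 and 0.44 and 0.50, 0.09 and 0.42, above 0 throughout but different on arrays 1 and 2.

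Several Aux/IAA genes differed widely between arrays. IAA14, the SOLITARY-ROOT repressor of lateral root initiation, stood at 1.21, -0.68 and 0.65, above 0 with the mutant in Cy3 and below 0 with the mutant in Cy5. Its probes, with 1.83, -1.15 and 1.36 and with 0.59, -0.20 and -0.07, differed in size on every array and in sign on array 3. IAA4 had 0.81, -0.01 and 0.37. IAA16 had 0.83, -0.73 and -0.35 and IAA3 0.58, -0.67 and -0.23, so in these genes array 1 stood alone. Whether dye or the plants of an array set these differences was not tested. Over the 29 Aux/IAA genes, arrays 1 and 3 correlated at r = 0.551, array 2 with array 1 at 0.04 and array 2 with array 3 at 0.178. Over the 65 SAUR genes the values were 0.584, 0.36 and 0.655, and over all genes 0.745, 0.427 and 0.452. These are correlations across genes of the same arrays, and genes are not independent replicates.

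Of the 29 Aux/IAA genes, 6 lay above 0 and 3 below 0 on all 3 arrays (31.0% with 1 sign, beside 37.6% of all genes). Among them IAA2, IAA7, IAA8 and IAA17 had probes of opposite sign on 3, 1, 2 and 2 arrays. The single sign of these genes is that of the probe average. The 6 genes IAA20, IAA30, IAA31, IAA32, IAA33 and IAA34, whose proteins lack the degron that auxin receptors bind or hold an altered one, had means from -0.07 to 0.24 and a median of -0.03, and none reached an unadjusted p under 0.05. The 23 others had a median of 0.03 and means from -0.58 to 0.80, with 3 higher and 1 lower at that p (17.4%). Of all genes 20.1% reached it, and 6 genes are too few to set against that share. IAA33 was the steadiest, at -0.06, -0.06 and -0.07, a mean close to 0. Among neighbours, the probe averages of IAA2 and IAA7 on chromosome 3 lay above 0 on all arrays. Those of IAA2 combine probes of opposite sign on every array, and those of IAA7 on array 2. IAA14 and IAA1 on chromosome 4, and IAA3 and IAA17 on chromosome 1, held members of mixed sign. These pairs were chosen for their position.

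**Figure D4:**
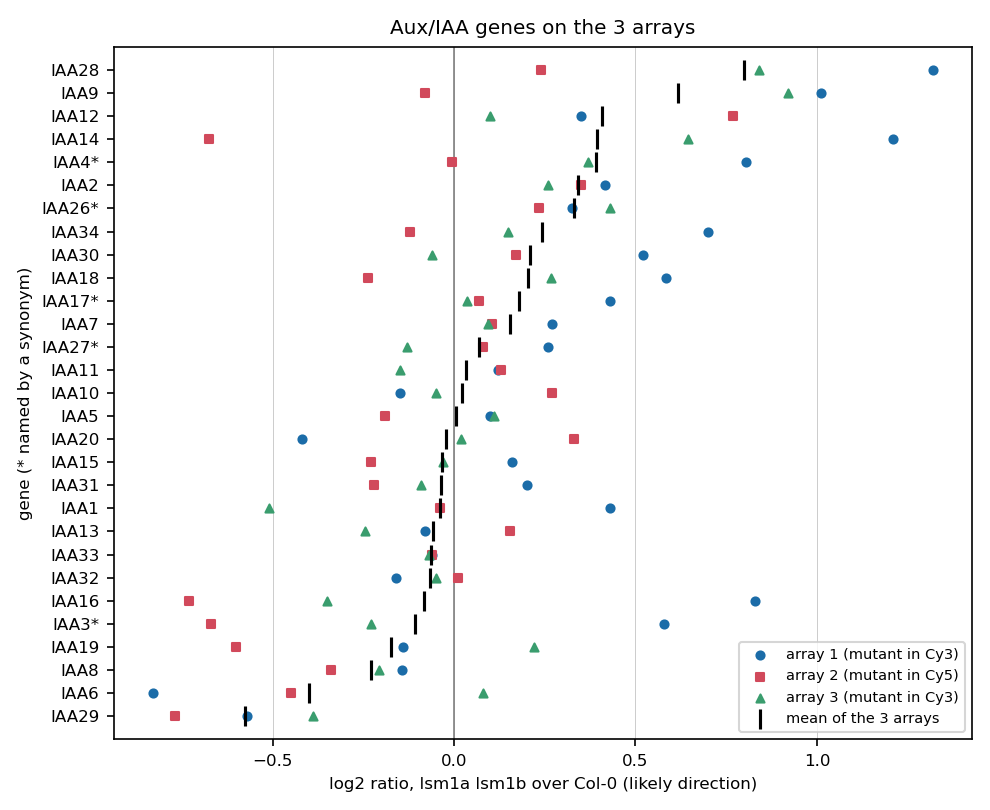
Log2 ratios (horizontal axis, lsm1a lsm1b over Col-0, likely direction) of the 29 Aux/IAA genes on the 3 arrays, ordered by mean; symbols mark the arrays, vertical ticks the means, and an asterisk a gene named by a synonym. IAA29 has all 3 values below 0 and IAA28 all above 0. IAA28 spreads over more than 1 log2 unit, as do IAA14, IAA16, IAA3 and IAA9.

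Probes of the same gene disagreed more on single arrays than in their means. Of the SAUR genes 8 had 2 or more probes, with means over arrays at most 0.34 apart and values on an array at most 0.65 apart, in SAUR33. Of the Aux/IAA genes 9 had several probes, with means at most 0.57 apart and values on an array at most 1.43 apart, in IAA14. The median gene length in the gene table was 839 bases for SAUR genes and 1740 bases for Aux/IAA genes, against 2104 bases for all genes measured.

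Other genes of auxin biology were read from 8 lists of 115 measured genes in all, and none passed the threshold. The 115 include the PP2C.D and proton pump genes described further below. GH3.2 stands both in the list of conjugation and turnover and, as BRU6, among the other auxin induced regulators, and is a single gene of the 115. At an unadjusted p under 0.05, 5 of the 115 were higher and 22 lower, beside 10.6% and 9.48% of all genes. In either direction this was 23.5% of the 115 and 20.1% of all genes. The median of the 115 was -0.05. The receptor list had the lowest median of the auxin lists with more than 1 measured gene, at -0.50. In it 5 of 7 genes were below 0 on all arrays, beside 18.0% of all genes. AFB4, TMK2, TMK3 and TMK4 were listed as receptors but are not among the 7. TMK1, a receptor-like kinase of auxin signalling at the cell surface, stood at -1.11, -0.33 and -0.79 (limma adjusted p = 0.116), and the F-box receptor gene AFB3 at -0.39, -0.79 and -0.69 (limma adjusted p = 0.0836). TPL, the co-repressor that Aux/IAA proteins recruit, had -0.95, -0.40 and -1.13. Its relatives are not described, because the symbols TPR1, TPR2 and TPR4 led to unrelated genes and TPR3 to none. The list of auxin response factors held 22 measured genes, with a median of -0.02. Under the symbols ARF1 and ARF3 it holds AT1G23490 and AT2G24765, which are ADP-ribosylation factor genes and not auxin response factors. Both also count among the 115. In this list ARF7, which drives lateral root and hypocotyl responses, had the mean furthest from 0, at -0.69 ± 0.21, followed by ARF18 at 0.37 ± 0.55.

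Of 27 auxin transport genes, 1 was higher and 8 lower at an unadjusted p under 0.05, beside 10.6% and 9.48% of all genes. ABCB21, an auxin transporter of the ABC class, stood at -0.86, -0.77 and -1.82, and PILS4, a carrier of the endoplasmic reticulum, at 1.31, 0.94 and 0.68, the largest values of the list in each direction. The 20 synthesis genes had a median of -0.06, with the nitrilase genes NIT1 at -0.67 ± 0.28 and NIT3 at 0.47 ± 0.34. The 20 genes of conjugation and turnover had a median of 0.05. GH3.12, which is known from salicylic acid synthesis rather than auxin, stood at 1.00, 2.32 and 1.52, and the amidohydrolase gene ILL5 at 0.58 ± 0.20. The 11 other auxin induced regulators had a median of -0.01, with PRE6 at -0.63 ± 0.66 and HAT2 at -0.40 ± 0.21.

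Of the genes that act with SAUR proteins, 8 were read, and their ratios were mostly negative. All but the phosphatase gene APD7 are proton pump genes, because PP2CD1, PP2CD2, PP2CD5 and PP2CD6 were listed but not matched to a gene. The 8 genes had a median of -0.33, with 0 higher and 3 lower, the pump genes AHA2, AHA3 and AHA11, at an unadjusted p under 0.05. Of all genes 10.6% were higher and 9.48% lower at that p, which also holds for the counts below. The phosphatase gene APD7 stood at -1.02, 0.17 and -1.17, and AHA2, a main proton pump of the plasma membrane, at -0.72, -0.34 and -0.89 (limma adjusted p = 0.1). The 16 light and brassinosteroid regulators of growth, several of which control SAUR and IAA genes, had a median of -0.34, with 2 higher and 7 lower. ATHB-2, a shade-induced homeobox gene, stood at -1.30, -1.63 and -0.91 (limma adjusted p = 0.0539), and PAR2, a small protein that restrains shade growth, at -0.62, -1.23 and -0.94. By contrast, 20 other rapidly induced genes with short-lived transcripts had a median of 0.45, with 9 higher and 0 lower. Their medians were 0.06, 1.17 and 0.81 on arrays 1, 2 and 3, near 0 on array 1. CML37 stood at 0.72, 2.43 and 1.84 and WRKY18 at 0.55, 2.42 and 1.27. None of these 3 lists held a gene past the threshold.

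**Figure D5:**
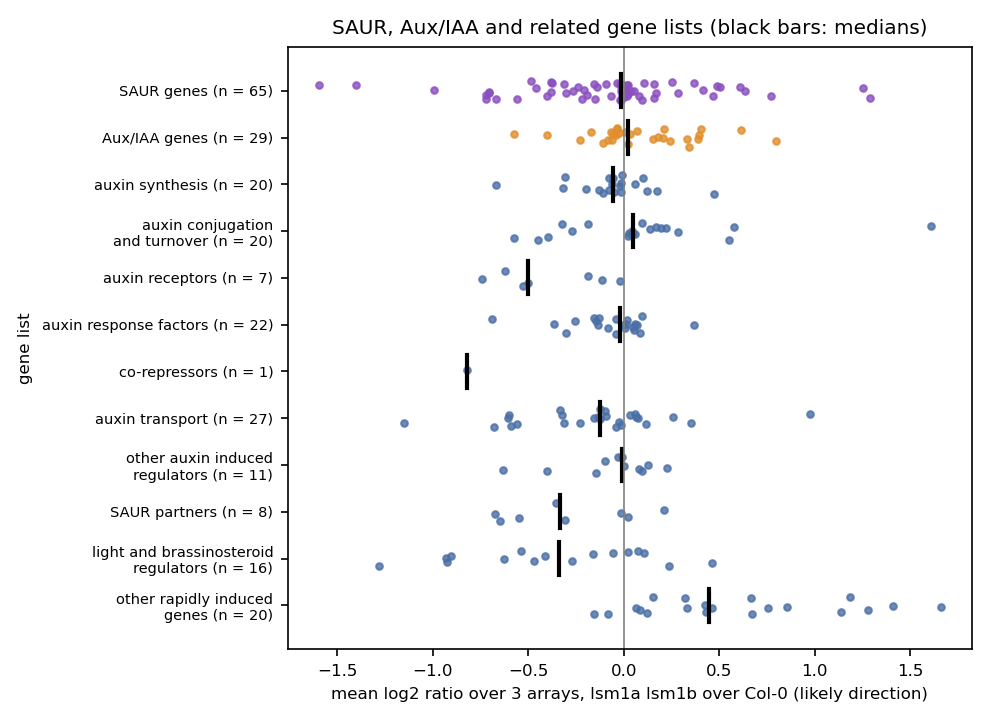
Mean log2 ratios over 3 arrays (horizontal axis, lsm1a lsm1b over Col-0, likely direction) of SAUR genes, Aux/IAA genes and 10 related gene lists; each point is a gene and black bars are medians. The families centre on 0, the receptor list has a median of -0.50 and the other rapidly induced genes one of 0.45, which was 0.06 on array 1 alone.

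Marker lists of other cell types give the setting for these values. Root, flower, seed, stomatal lineage and vascular lists had medians between -0.07 and 0.13, and the meristem and boundary list 0.12, with CUC3 at 1.08 ± 0.37. The 6 mesophyll genes were all negative, from -2.58 to -0.64 with a median of -1.22. Below 0 on all arrays were 5 of 6, beside 18.0% of all genes. The mesophyll medians were -1.08, -0.29 and -1.59 on arrays 1, 2 and 3, and probes of 1 gene differed by up to 4.46. None of these marker genes passed the threshold in limma. At an unadjusted p under 0.05 there were 4 mesophyll, 2 vascular and 2 meristem and boundary genes and 0 in the other lists. Of all genes 20.1% reached that p. The part of these markers in the SAUR and Aux/IAA ratios was not tested.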

How the data were processed

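The deposited values are normalized log2 ratios, 1 per probe and array, for 43656 rows on 3 arrays, and limma is named without a version in the submitters' processing notes. The handling of background, dyes and sign was not given in the sources used here. Base 2 was assumed for the logarithm from the range of the values, -6.76 to 5.87, and each array's median lay within 0.01 of 0. Both channels are thus combined, the number of arrays limits the precision, and dim probes could not be recognised.

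After 55 control features were left out, 34342 probes had 1 gene symbol, 0 had several and 9259 had none. Names were updated through the TAIR10.1 gene table, 32245 probes by accession and 2015 by symbol. Another 37 probes with conflicting names and 45 without a match were left unnamed. The 34260 named probes were averaged per gene and array, giving 24650 genes.

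The mean ratio of each gene was compared with 0 by a two-sided moderated test (lmFit and eBayes of limma 3.58.1, under R 4.3.3), Benjamini-Hochberg adjustment over all genes and a threshold of 0.05. The fit was also run on simulated ratios with 200 changed genes and independent noise. These held no dye or array effects, so the run cannot show how the fit handles such effects. The alternatives left out each array, added a dye term, changed scaling, probe summary, variance model or array weights, or added synonyms. Named were genes past the threshold, the 6 highest and 6 lowest of each family, and the 4 with the smallest p among those of 1 sign. Of each related list the 2 genes with the means furthest from 0, in either direction, were named. Genes were also named by position or when said so. The members and lists were chosen with earlier results of these data known. No sequences are shown.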

Additional observations from a re-analysis of the deposited data

How the results depend on the processing

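Among the 26 members, 0 genes passed the threshold in limma, and 3 had an unadjusted p under 0.05. The count stayed 0 without each array, with a dye term, and under the other alternatives apart from 2. It was 2 with the genes named by a synonym, and 8 with array weights, where array 3 received a weight of 5.57 against 0.646 and 0.278 for arrays 1 and 2, so that the values come close to array 3 alone. Over the auxin lists, the ADP-ribosylation factor genes included, the count of 0, with 27 at an unadjusted p under 0.05, became 42 with array weights. These are 30.8% of members and 36.5% of the listed genes, beside 36.8% of all genes under the same weights. Of the 2 calls among synonym genes, AT5G18030 was lost without any 1 array and with the dye term, and SAUR33 also with quantile normalization (adjusted p = 0.0532) and the robust variance model (adjusted p = 0.0515). Over all alternatives the adjusted p ranged from 0.00158 to 0.295 for AT5G18030 and from 0.0017 to 0.295 for SAUR33. Without array 1, 2 or 3, and likewise with the dye term, 0 genes of the whole table passed, while 2804, 7327, 2542 and 6390 had an unadjusted p under 0.05. Medians depended on single arrays: without each in turn the SAUR median of the 2 members ranged from -0.56 to -0.08, the Aux/IAA median from -0.02 to 0.06, and their difference from -0.55 to -0.13. With array weights the SAUR median was -0.50 and the difference -0.49. Each array holds both genotypes, so the test of the ratios against 0 already compares them within arrays, and there is 1 group of arrays.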
